A study of Mus musculus with 4 samples.

Results

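The alkaline phosphatase genes Alpi, Akp3 and Alpl were taken by symbol, and all 3 were found among the 20937 genes built from the mm9 exon blocks of the series. Alppl2, the placental-like gene that lies beside Alpi, was described with them because it shares sequence with Alpi and Akp3. Small intestine and colon of untreated C57BL/6 mice aged 9 to 10 weeks had been frozen and sequenced with 35-color SOLiD reads, and the labels name total tissue while the study's methods name jejunum and distal colon. Each tissue gave 1 library from polyadenylated RNA by SMART cDNA synthesis, here called cDNA fragmented and not strand-specific, and 1 library with a whole transcriptome kit that keeps the strand, here called rRNA-depleted after its label. With 1 library per tissue and protocol, no comparison within a protocol has a replicate or a test, and intervals cover counting error only except in the fit over all 4 libraries. The study describes both tissues as taken from the same individuals, but how many mice went into each library was not given in the sources used here. In whole tissue fewer cells of a type and less RNA per cell cannot be told apart.

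Alkaline phosphatases are zinc-dependent enzymes that are held on the outer cell surface by a glycosylphosphatidylinositol (GPI) anchor and remove phosphate groups from many substrates. In the gut they sit on the brush border of enterocytes, where they are known to act on bacterial lipopolysaccharide, on nucleotides and on dietary phosphate esters. Mouse Alpi encodes an intestinal isozyme made along the small intestine, Akp3 encodes the duodenal isozyme, and Alpl encodes the tissue-nonspecific isozyme of bone, liver, kidney and leukocytes.

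Alpi and Akp3 were both high in the rRNA-depleted small intestine, at 432 and 367 RPKM (reads per kilobase of exon and 1000000 placed reads), whereas in the cDNA fragmented small intestine Alpi stood at 68.3 RPKM and Akp3 at 0.371. Both genes were lower in colon in each protocol. Alpl was low in all 4 libraries. The 2 protocols gave its tissue ratio opposite directions, but the rRNA-depleted one, from 3 against 2 reads, was not resolved.

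Alpi, Akp3 and Alppl2 lie within a short stretch of chromosome 1, on different strands (mm9). Alpi spans chr1:88994579-88998181 on the minus strand with 11 exon blocks and 2335 exonic bases. Akp3 spans chr1:89021583-89024487 on the plus strand with 11 blocks and 1680 bases, and its deposited model runs from the start codon to the stop codon without untranslated exon sequence. Alppl2 spans chr1:88983266-88986503 on the minus strand with 11 blocks and 2112 bases. Alpl lies apart, at chr4:137297647-137352292 on the minus strand, with 12 blocks and 2516 bases. No block of the 4 genes overlapped an exon of another protein-coding gene, and overlap with other kinds of gene was not counted.

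The coding sequences of Alpi and Akp3 were identical at 81.2% of 1656 aligned bases, as close as Alpi and Alppl2 (81.1% of 1587). Akp3 and Alppl2 shared 77.8%, and Alpl shared between 63.9% and 64.7% with the other 3 genes. Blocks 2 to 9 of Alpi and Akp3 have equal lengths, and their identity was uneven along the gene. It was 94.9% in block 2 and 94.8% in block 3, and it fell to 71.9% in block 8. The following stretch of block 2 is shown because it is the longest run that Alpi and Akp3 share, 68 bases in coding exon (Alpi chr1:88997844-88997911, Akp3 chr1:89021777-89021844, Alppl2 chr1:88986075-88986142, mm9, each written 5′ to 3′ on the gene's own strand). Capitals mark the 5 bases at which Alppl2 differs from Alpi.
Alpi: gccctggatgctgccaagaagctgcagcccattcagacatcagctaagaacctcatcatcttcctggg
Akp3: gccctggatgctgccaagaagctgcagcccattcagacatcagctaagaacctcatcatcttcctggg
Alppl2: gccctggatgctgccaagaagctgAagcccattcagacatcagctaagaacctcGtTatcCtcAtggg
No library holds a read that lies fully inside this stretch in any of the 3 genes. A read from it fits 2 genes equally well, and the deposited files hold reads with a single place within the mismatches allowed.

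The 60 bases of block 8 in which Alpi and Akp3 differ most are shown as the contrast (Alpi chr1:88996288-88996347, Akp3 chr1:89023314-89023373, mm9, coding exon). Capitals mark the 24 bases at which the 2 genes differ from each other.
Alpi: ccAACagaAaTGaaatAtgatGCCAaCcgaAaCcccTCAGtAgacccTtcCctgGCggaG
Akp3: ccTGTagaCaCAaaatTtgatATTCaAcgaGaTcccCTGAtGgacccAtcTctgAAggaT
Here reads could be told apart. Inside these bases the rRNA-depleted small intestine had 58 Alpi reads and 28 Akp3 reads. The cDNA fragmented small intestine had 65 Alpi reads and 1 Akp3 read.

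To see how much of each gene could receive reads, every 35-base window inside an exon block was compared with all other exon places of mm9. Of 1961 Alpi windows, 498 (25.4%) had another place within 3 base differences, and 81 were identical to another place. Of 1306 Akp3 windows, 396 (30.3%) had such a place and 75 were identical to one. Alppl2 had 295 of 1738 windows (16.97%) of this kind. Alpl had none among its 2108 windows, so no Alpl read from inside a block was open to loss by this route. All of the Alpi and Alppl2 windows concerned, and 373 of the 396 of Akp3, had their near copy within the 4 genes. All windows of block 2 and block 3 were of this kind in both Alpi and Akp3.

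The deposited reads followed this map. At windows of Alpi and Akp3 with a near copy, 718 reads were kept over the 4 libraries, and in only 14 of them did the base differences and the read's own mismatches add up to 3 or less. Reads without a mismatch numbered 2152 at windows with more than 3 differences, and 7 at the windows with fewer. The 498 Alpi windows with a near copy held 155 reads in the rRNA-depleted small intestine, against 599 if they had been covered like the rest of the gene. The 396 such Akp3 windows held 150 reads, against 437 by the same reckoning. In the cDNA fragmented small intestine the Alpi windows held 379 reads against 1060. This reckoning assumes even coverage along the gene.

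**Figure D1:**
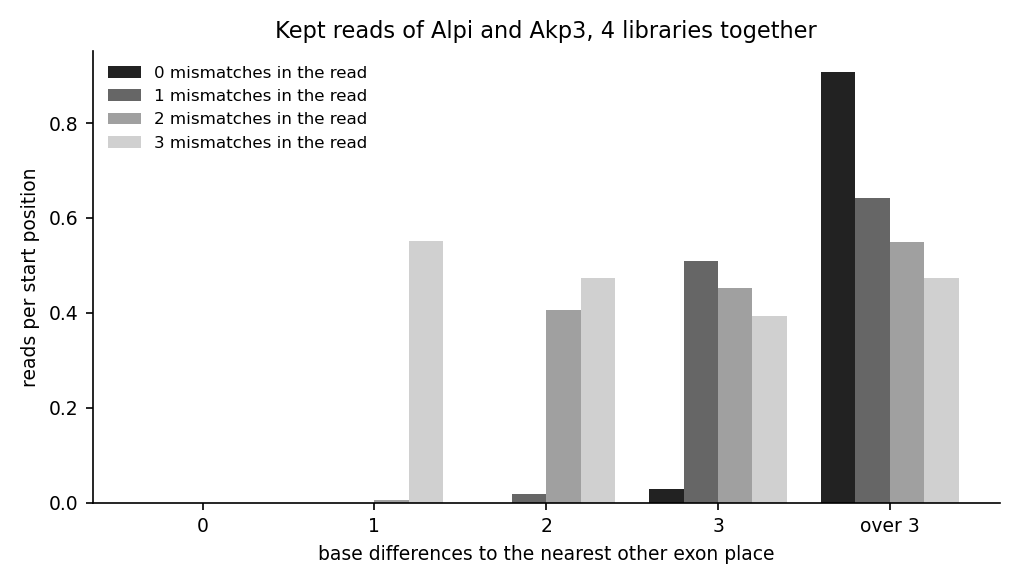
Reads kept per start position of Alpi and Akp3 (y axis) by the number of base differences to the nearest other exon place (x axis) and by the mismatches in the read (shade), with the 4 libraries added together. The bars are near 0 wherever differences and mismatches add up to 3 or less, and reach 0.907 reads per position for reads without mismatches at positions with over 3 differences.

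Reads from across exon borders were a second loss. Of the 2301 possible start positions on the spliced Alpi model, 85.2% lie inside a block, against 79.3% for Akp3 and 84.9% for Alpl (median of 20936 genes, 90.5%). The junction reference used by the authors carried 1 more base on its 5′ side than its table gives by end minus start, since 83 of 91 junction reads without mismatches matched 29 plus 28 bases and 0 matched 28 plus 28. Junction placements were therefore not read as splicing. They made up 105 of 2052 Alpi reads and 82 of 1255 Akp3 reads in the rRNA-depleted small intestine.

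RPKM was computed over all uniquely placed exon and junction reads. Depth was 22484041 such reads for cDNA fragmented small intestine, 24798934 for cDNA fragmented colon, 2035386 for rRNA-depleted small intestine and 3478387 for rRNA-depleted colon, so a count of 3 reads over Akp3 stood for 0.0794, 0.0720, 0.877 and 0.513 RPKM in that order.

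Alpi had 3584 reads in the cDNA fragmented small intestine, 146 in the cDNA fragmented colon, 2052 in the rRNA-depleted small intestine and 103 in the rRNA-depleted colon, which began at 2004, 138, 524 and 70 distinct start points. Its level was 68.3 RPKM (95% Poisson interval 66.0 to 70.5), 2.52 (2.13 to 2.97), 432 (413 to 451) and 12.7 (10.4 to 15.4) in the same order. Each small intestine library was higher than the colon library of the same protocol. Alpi was 27.1 times as high in small intestine as in colon in the cDNA fragmented pair (exact conditional 95% interval 22.9 to 32.2) and 34.05 times in the rRNA-depleted pair (27.9 to 41.9). These intervals overlap. By start points in place of reads the ratios were 15.2 and 12.8.

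Akp3 had 14 reads in the cDNA fragmented small intestine, 1 in the cDNA fragmented colon, 1255 in the rRNA-depleted small intestine and 6 in the rRNA-depleted colon. These lay at 14, 1, 301 and 6 start points. Its level was 0.371 RPKM (0.203 to 0.622), 0.0240 (0.00061 to 0.134), 367 (347 to 388) and 1.03 (0.377 to 2.23). One library stood far above the other 3, which all lay near or below 1 RPKM. The rRNA-depleted tissue ratio was 357 (164 to 976), and the cDNA fragmented ratio, from 14 reads against 1, was 15.4 (2.35 to 653). The rRNA-depleted ratio was 85.8 by start points, 574 with at most 1 mismatch and 572.5 at start positions with more than 3 differences to any other exon place, and the cDNA fragmented ratio was 8.82 at such positions. All of these kept Akp3 higher in small intestine.

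Alpl had 14 reads in the cDNA fragmented small intestine and 44 in the cDNA fragmented colon. In the rRNA-depleted pair it had 3 and 2 reads. Its level was 0.247 RPKM (0.135 to 0.415), 0.705 (0.512 to 0.947), 0.586 (0.121 to 1.71) and 0.229 (0.0277 to 0.826), in the library order used above. In the cDNA fragmented pair Alpl was 2.85 times as high in colon (1.53 to 5.63). In the rRNA-depleted pair the small intestine value was 2.56 times that of colon (0.294 to 30.7), which was not resolved at 3 against 2 reads. The tissues thus differed beyond counting error in the cDNA fragmented pair only. With at most 1 mismatch the cDNA fragmented ratio of small intestine to colon moved from 0.351 to 0.211, from 5 against 26 reads.

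Alppl2 had 10, 2, 4 and 0 reads in the same library order, or 0.211, 0.0382 and 0.931 RPKM where any read was found. In the rRNA-depleted colon its 0 reads stood against 0.408 RPKM for 3 reads, and the exact 95% interval reached 0.502 RPKM. Its closeness in sequence to Alpi did not go with a similar count in any library.

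**Figure D2:**
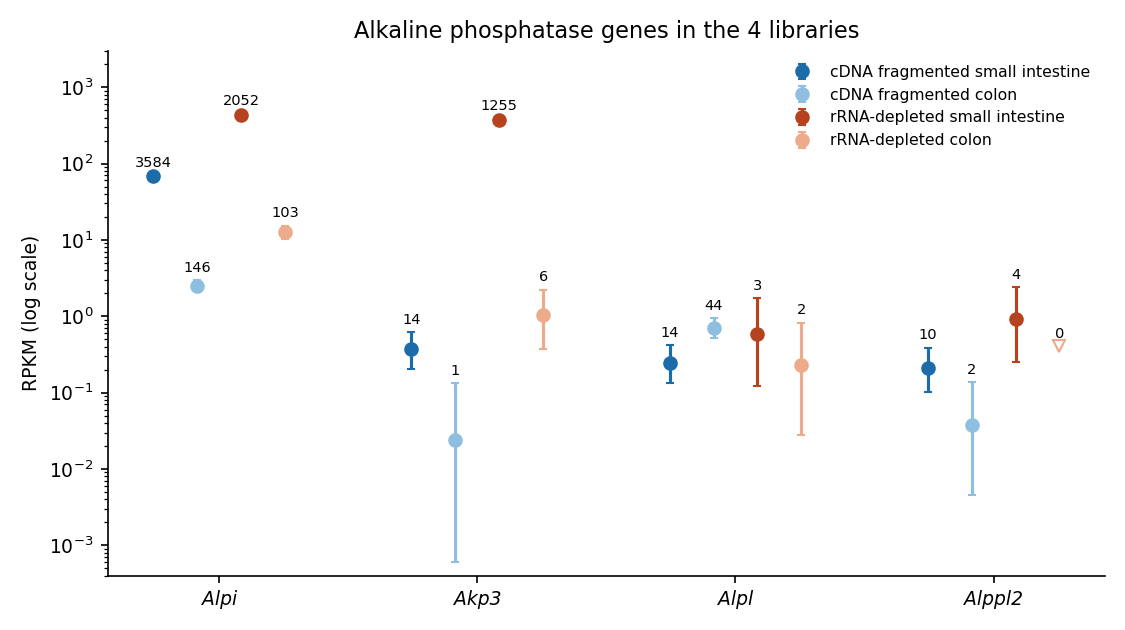
RPKM on a log scale (y axis) of the 4 alkaline phosphatase genes (x axis) in the 4 libraries (colors), with exact 95% Poisson intervals as bars and read counts above the points. The open triangle marks the level of 3 reads where 0 were found, and Akp3 stands at 367 RPKM in the rRNA-depleted small intestine and at or below 1.03 in the other 3 libraries.

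A fit of tissue and protocol over the 4 libraries together leaves 1 residual degree of freedom and takes the protocols as the pairs. The study's methods name a different RNA isolation kit for each protocol, but whether the protocols shared mice was not given in the sources used here. The p-values of the fit thus measure only spread between these libraries, which may be technical. For each gene limma also draws the variance towards a trend over all genes fitted. Intervals and p-values therefore reflect the spread of other genes as well as that of the gene itself. By limma on log2(RPKM + 1) over 17541 genes with any read, Alpi was higher in small intestine by 4.64 (95% interval 3.85 to 5.43, adjusted p = 0.00203). The Akp3 estimate was 3.96 (0.40 to 7.53), which did not pass (adjusted p = 0.209), and with 0.1 RPKM added in place of 1 it was 5.14 and passed (adjusted p = 0.00561). Alpl was at -0.04 (-0.64 to 0.56, adjusted p = 0.951). By this fit 1.85% of genes passed for small intestine and 2.4% for colon.

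By level, Alpi came first in each library. In the rRNA-depleted small intestine Akp3 was second, and there the intervals of Alpi (413 to 451) and Akp3 (347 to 388) did not overlap. Those intervals take each read as independent, while the 2052 Alpi reads lay at 524 start points and the 1255 Akp3 reads at 301. The intervals of Akp3, Alpl and Alppl2 overlapped in the cDNA fragmented small intestine. In the cDNA fragmented colon Alpl was second, above Akp3 and Alppl2, whose intervals overlapped. In the rRNA-depleted colon Akp3, Alpl and Alppl2 could not be ordered.

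In the rule used by the study for tissue differences, one tissue must reach 3 times the other tissue's RPKM plus a penalty of 1. Alpi passed for small intestine in both protocols, Akp3 in the rRNA-depleted pair, and Alpl in neither, so 1 of 3 members was called in the cDNA fragmented pair and 2 of 3 in the rRNA-depleted pair. Of all 20937 genes, 2.15% (450) passed for small intestine and 2.54% (531) for colon in the cDNA fragmented pair, and 2.77% (580) and 4.82% (1009) in the rRNA-depleted pair. Scaling by the median of ratios raised log2 small intestine over colon by 0.40 and 0.34 for each gene, and turned these calls into 587 against 353 and 791 against 647. A gene below 3 RPKM in both tissues could not be called, which was the case for Akp3 in the cDNA fragmented pair and for Alpl in both pairs.

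Akp3 differed most between the protocols. In small intestine its level was 990.2 times as high in the rRNA-depleted library as in the cDNA fragmented library (588 to 1817), against 6.32 times for Alpi (5.99 to 6.68), 2.37 for Alpl (0.436 to 8.48) and 4.42 for Alppl2 (1.01 to 15.3). By the rule of 3-fold plus 1, Alpi and Akp3 were both higher in the rRNA-depleted small intestine, as were 8.94% of all genes. Among the 10195 genes with at least 100 reads over the 2 libraries, the median of log2 of rRNA-depleted over cDNA fragmented (0.1 RPKM added to each) was 0.15, and 90% of genes lay between -2.72 and 3.19. Alpi stood at 2.66, inside that range, and Akp3 at 9.61, with 24 genes above it. The 5 genes that led this order, named after their values were seen, were Snord82, Snora7a, AL671866.1, Snord110 and SNORD73, and 4 of them carry the names of small nucleolar RNAs. Cela2a and Cpa1, pancreatic acinar markers, also lay above Akp3 in this order. They had 794 and 186 RPKM in the rRNA-depleted small intestine and 0 in the cDNA fragmented small intestine. In colon the Alpi difference was similar, at 5.03 times (3.87 to 6.52), while 6 reads against 1 left Akp3 at 42.8 times (5.19 to 1968).

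**Figure D3:**
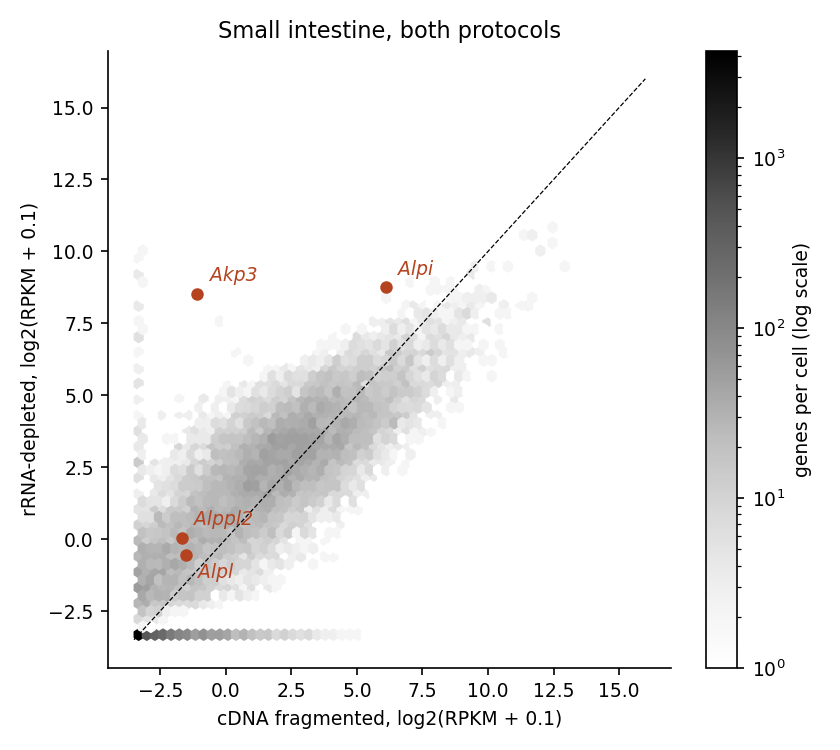
Each gene's log2(RPKM + 0.1) in the cDNA fragmented small intestine (x axis) against the rRNA-depleted small intestine (y axis), with the number of genes as gray shade on a log scale, the dashed line at equal values and the 4 alkaline phosphatase genes in red. Alpi lies close to the upper edge of the cloud and Akp3 far above it.

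Of the windows free of near copies Akp3 has 910, and they held 8 reads in the cDNA fragmented small intestine and 1005 in the rRNA-depleted small intestine. On the 1463 such windows of Alpi there were 3114 and 1759 reads. Per kilobase of free start positions and 1000000 placed reads, Akp3 reached 0.391 (0.169 to 0.770) and 543 (510 to 577), and Alpi 94.7 (91.4 to 98.1) and 591 (563 to 619). The intervals of the rRNA-depleted values overlap on this scale, unlike those of the RPKM values.

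Of the reads on Alpi and Akp3 together, Alpi took 99.6% in the cDNA fragmented small intestine (exact binomial 95% interval 99.3% to 99.8%) and 62.1% in the rRNA-depleted small intestine (60.4% to 63.7%). Per free start position the Alpi share in the rRNA-depleted library was 52.1%. Over blocks 2 to 10 alone, which are coding in both genes, it was 57.7%, from 819 Alpi reads on 578 positions and 674 Akp3 reads on 648 positions. For the cDNA fragmented library these blocks had 1218 Alpi reads and 8 Akp3 reads, and the share was 99.4%.

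Coverage along the genes differed between protocols. In the cDNA fragmented small intestine 1889 of the Alpi exon reads (53.2%) lay in block 11, the 961-base last block, and 1613 of them started in its untranslated bases. Block 9 of Alpi had 81.3 reads per kilobase and 1000000 placed reads, and block 4 had 52.6, while block 2, where all windows have a near copy, had 7.98. In the rRNA-depleted small intestine block 11 held 898 reads (46.1%), and the highest density was in block 9, at 765. Akp3 in this library was densest in block 6, at 732, and thin in block 5, at 71.0. Block 2 of Akp3 had 2 reads. The 14 Akp3 reads of the cDNA fragmented small intestine were scattered, with no more than 3 reads in any block.

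Reads of Alpi in both tissues and of Akp3 in small intestine were stacked more in the rRNA-depleted libraries. Alpi had 3.92 reads per start point in the rRNA-depleted small intestine and up to 128 at one point, against 1.79 and up to 9 in the cDNA fragmented small intestine. Akp3 had 4.17 reads per start point and up to 76 at one point. All other values of the 3 genes were at most 1.47 reads per start point. The highest Akp3 stack thus held 76 of 1255 reads, spread over 301 start points in all.

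**Figure D4:**
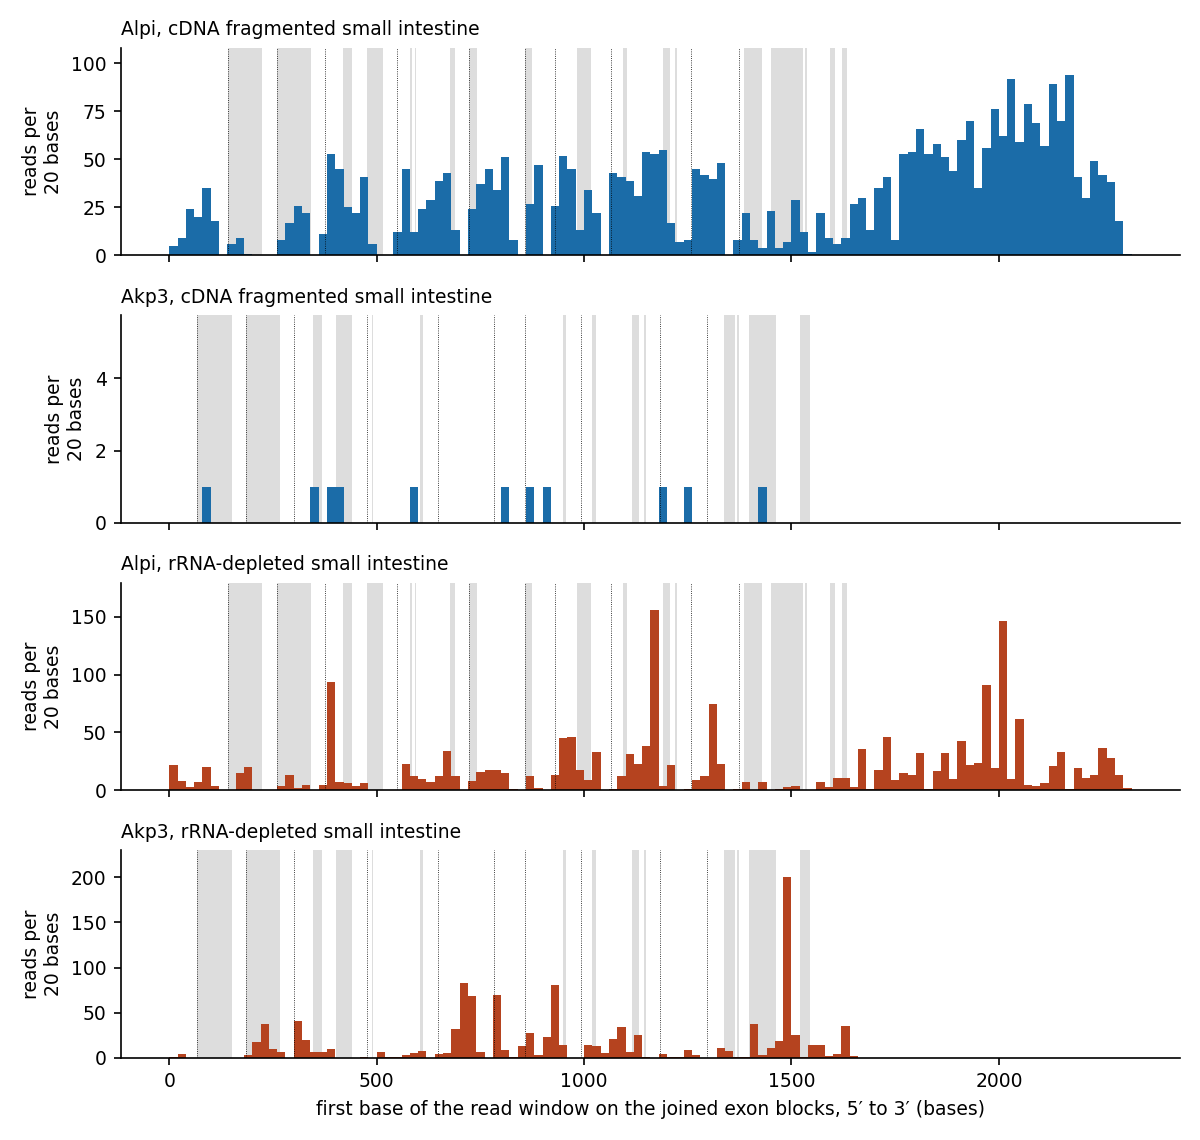
Reads by the first base of their window (y axis, reads in consecutive bins, with its own scale in each panel) along the joined exon blocks from 5′ to 3′ (x axis, bases) for Alpi and Akp3 in the 2 small intestine libraries. Gray marks windows with another exon place within 3 differences and dotted lines mark block borders. Akp3 shows scattered single reads in the cDNA fragmented library and reads in all 11 blocks, with 2 in block 2, in the rRNA-depleted library.

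Strand could be read in the rRNA-depleted libraries alone. There all exon reads of the members lay on the sense strand. Alpi had 1947 sense and 0 antisense reads in small intestine (Wilson 95% interval of the sense share 99.8% to 100%) and 102 and 0 in colon (96.4% to 100%). Akp3 had 1173 and 0 in small intestine (99.7% to 100%) and 6 and 0 in colon. Alpl had 3 and 2 sense reads, and no antisense read. The median gene was at 100% sense in both libraries. No antisense transcription over the members was detectable at this depth. Both orientations occurred in the cDNA fragmented libraries, with 56.3% of Alpi reads in sense orientation in small intestine (54.7% to 57.9%) and 56.6% in colon, where the quartiles of 9514 and 10566 genes with at least 100 reads were 46.3% to 51.5% and 44.9% to 51.8%. Alpl had 10 sense and 4 antisense reads in small intestine and 29 and 15 in colon.

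The matching let reads carry up to 3 mismatches. Alpi reads without mismatch made up 26.5% in the cDNA fragmented small intestine and 36.7% in the rRNA-depleted small intestine, and Akp3 reads 29.6% in the latter. Of the 14 Akp3 reads in the cDNA fragmented small intestine 2 had no mismatch and 6 had 3. In the rRNA-depleted colon 4 of the 6 Akp3 reads had 3 mismatches and none had 0, against 39 of 103 Alpi reads without mismatch there. The 1 Akp3 read of the cDNA fragmented colon had 2 mismatches.

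Markers of cell types and of gut segments were set beside these values. The labelled tissues carried their epithelium. All 9 brush border markers found of 10 listed (Vil1, Sis, Lct, Anpep, Treh, Fabp1, Fabp2, Apoa4 and Slc5a1) passed for small intestine in both protocols, and all 5 colon markers (Car1, Car4, Aqp8, Slc26a3 and Atp12a) for colon. Summed over the list, brush border markers reached 57566 RPKM in the cDNA fragmented small intestine and 12773 in the rRNA-depleted small intestine, and 4644 and 812 in the colon libraries. Fabp2 (38180 and 3249 RPKM in the cDNA fragmented and rRNA-depleted small intestine) and Fabp1 (13459 and 600.2), both fatty acid binding proteins, carried most of the sum in the cDNA fragmented small intestine, while Apoa4 was the highest of the list in the rRNA-depleted small intestine (3676 RPKM). Vil1, Sis, Lct, Treh and Apoa4 had the higher level in the rRNA-depleted small intestine, such as 432 and 827 RPKM for Vil1, and the median log2 of rRNA-depleted over cDNA fragmented over the list was 0.94, with 2 genes called higher and 2 lower. The ratio of small intestine to colon in the rRNA-depleted pair ranged from 3.42 for Vil1, the actin bundler villin, to 127 for Anpep, aminopeptidase N (107 to 151). The Alpi ratio of 34.05 lay inside that range and the Akp3 ratio of 357 above it. The Akp3 interval (164 to 976) overlapped those of Treh (64.0 to 218) and Fabp1 (59.7 to 251). For the cDNA fragmented pair the markers ranged from 3.68 for Vil1 to 4637 for Apoa4.

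Pancreatic acinar markers moved with Akp3 in small intestine. Of Amy2a5, Try5, Cpa1 and Cela2a, all 4 were at 0 in the cDNA fragmented small intestine and 3 were present in the rRNA-depleted small intestine, with a summed level of 1027 RPKM. Cela2a, a pancreatic elastase, had 1323 reads there and Cpa1, a carboxypeptidase, 599. The cDNA fragmented colon also held acinar markers, at 306 RPKM in sum, beside 1 Akp3 read, and the rRNA-depleted colon had 3.17 RPKM. Amy2a5 was at 0 in all 4 libraries.

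Genes known for the proximal and the distal small intestine, listed after the members' values had been seen, also differed between the small intestine libraries. Of 5 distal genes, 4 were lower in the rRNA-depleted library by the rule of 3-fold plus 1, as were 6.2% of all genes. Fabp6, the ileal bile acid binding protein, went from 1204 to 311 RPKM, and Slc10a2, the ileal bile acid transporter, went the other way, from 13.4 to 49.5. Of 8 proximal genes, 2 were higher and 2 lower by that rule. Slc40a1, the iron exporter ferroportin, went from 4.32 to 50.3 RPKM and S100g, a calcium binding protein, from 7.88 to 33.8, whereas Gip, a hormone of proximal K cells, went from 86.5 to 15.1. The colon libraries differed in the same direction for Fabp6 (33.2 to 5.20 RPKM), Slc10a2 (29.4 to 102) and Slc40a1 (22.4 to 110). S100g went the other way there (107 to 15.6), and Gip had 0 reads in colon. Slc10a2 and Slc40a1 were higher in colon than in small intestine in both protocols. The part of the acinar, proximal and distal signals in the Akp3 difference was not tested, and with 1 library each, the protocol and the piece of tissue cannot be told apart.

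**Figure D5:**
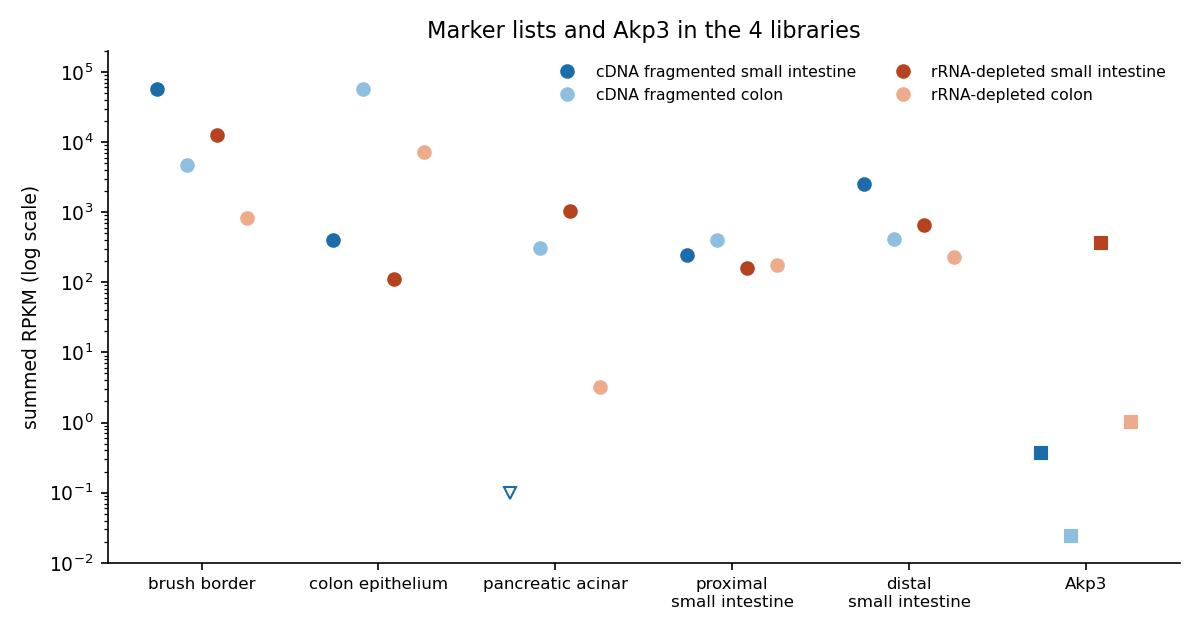
Summed RPKM on a log scale (y axis) of 5 marker lists and the RPKM of Akp3 (x axis) in the 4 libraries (colors), with the open triangle for a list at 0. Acinar markers and Akp3 are both high in the rRNA-depleted small intestine and low in the cDNA fragmented small intestine, while the cDNA fragmented colon has acinar markers at 306 RPKM and Akp3 at 0.0240.

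For Alpl, lists of cells known to carry tissue-nonspecific phosphatase were examined. Neutrophil markers (6 found of 7 listed) summed to 2.73 RPKM in the cDNA fragmented small intestine and 1.69 in the cDNA fragmented colon, and to 5.65 and 3.97 in the rRNA-depleted libraries. There 5 of 6 were at 0, Mpo and Elane among them, and Cxcr2, a chemokine receptor, made up the sum with 35 and 42 reads. Osteoblast markers summed to at most 0.921 RPKM, and Sp7, their defining factor, was at 0 in all 4 libraries. Endothelial markers lay between 14.4 and 24.6 RPKM in sum and passed in neither direction. B cell markers summed to 58.6 and 32.2 RPKM in cDNA fragmented small intestine and colon and to 16.8 and 25.03 in the rRNA-depleted libraries, and 1 of 4 passed for colon in the rRNA-depleted pair. Fibroblast markers summed to 220 and 245 RPKM and to 39.8 and 185, with 2 of 4 passing for colon in the rRNA-depleted pair. Smooth muscle markers were higher in colon, where 3 of 4 passed in each protocol, and the hepatocyte list had 1 of 2 passing for colon in each. Alpl was higher in colon in the cDNA fragmented pair alone, and the part of any of these cells in that was not tested.

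The genes around the enzymes' work were described by list, with the median of log2 small intestine over colon (0.1 RPKM added) given for the cDNA fragmented and then the rRNA-depleted pair. Over all 20937 genes, those without reads included, these medians were -0.12 and 0.00. Scaling by the median of ratios, which raised log2 small intestine over colon by 0.40 and 0.34, was not applied to any of these medians. Beside the counts given here and below, 2.15% of all genes passed for small intestine and 2.54% for colon in the cDNA fragmented pair. In the rRNA-depleted pair these shares were 2.77% and 4.82%. The 28 genes that build and attach the GPI anchor had medians of -0.58 and -0.54. None passed for small intestine, and 1 passed for colon in each protocol, Dpm3 in the cDNA fragmented pair and Pgap2 in the rRNA-depleted pair, both named after their values were seen. Dpm3 in the rRNA-depleted pair was at 2.66 times the colon level in small intestine (1.07 to 6.96, 14 against 9 reads), and Pgap2 in the cDNA fragmented pair was 2.80 times as high in colon (2.44 to 3.22). None of the 3 zinc transporters of the secretory pathway (Slc30a5, Slc30a6 and Slc30a7), known to supply zinc to alkaline phosphatases, passed in either protocol, with medians of 0.11 and -0.60.

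Among 6 phosphate carriers, 1 passed for each tissue in both protocols, with list medians of -0.46 and -0.19. Slc34a2, the sodium-phosphate cotransporter of the brush border, had 64.4 and 3.25 RPKM in cDNA fragmented small intestine and colon and 104.9 and 5.83 in the rRNA-depleted libraries. Its ratios of 19.8 (17.7 to 22.2) and 18.01 (14.4 to 22.8) lay below those of Alpi. Slc20a1, a phosphate carrier found in most cells, was 23.7 times (21.8 to 25.8) and 5.76 times (4.63 to 7.25) as high in colon.

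Of 9 nucleotide and pyrophosphate enzymes found of 10 listed, 2 passed for small intestine in the cDNA fragmented pair, 1 in the rRNA-depleted pair and 0 for colon in either, with medians of -0.63 and -0.82. Enpp3, an ectonucleotidase that yields nucleoside monophosphates, was called in both, at 162 times (136 to 195) and 46.6 times (31.8 to 71.2) the colon level. For the 5 genes of lipopolysaccharide recognition the medians were -0.64 and -1.51. None passed for small intestine, and 1 and 2 passed for colon. Cd14, the lipopolysaccharide co-receptor, was called in both, at 3.76 times (3.41 to 4.14) and 6.38 times (3.34 to 13.7) the small intestine level.

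Of 11 transcription factors of enterocytes, 2 passed for small intestine in each protocol, and 2 and 1 for colon, with medians of -0.01 and 0.68. Gata4, a factor of the proximal small intestine, was 147 times (62.5 to 453) and 83.7 times (35.4 to 260) as high in small intestine, with 8.72 RPKM in the cDNA fragmented and 35.5 RPKM in the rRNA-depleted small intestine. Hnf4g, a nuclear receptor of enterocytes, was 33.2 times (31.1 to 35.5) and 6.89 times (6.11 to 7.79) as high. Cdx1, an intestinal homeobox factor, was higher in colon in both, by 4.14 times (3.76 to 4.56) and 4.94 times (4.26 to 5.74). Cdx2, of the same list, was 3.69 times (3.38 to 4.03) as high in colon in the cDNA fragmented pair. In the rRNA-depleted pair Cdx2 was 2.01 times (1.72 to 2.36) as high in small intestine.

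The genes nearest to each member by Euclidean distance of log2(RPKM + 1) over the 4 libraries were listed as a description. For Alpi these were Dak (distance 1.34), a kinase of triose metabolism, Apob (1.44), the structural protein of chylomicrons, and Asah2 (1.56), a ceramidase. Asah2 had 52.4 and 0.695 RPKM in cDNA fragmented small intestine and colon and 204 and 11.9 in the rRNA-depleted libraries. For Akp3 no gene came as close. Mir194-1 (2.41) and Scarna9 (3.29) had at most 12 reads in any library, and Slc43a2 (3.51), an amino acid transporter, had 8.53, 0.390, 145.5 and 5.16 RPKM. The neighbours of Alpl, F730016J06Rik (0.14), Dcaf12l2 (0.18) and Rnf183 (0.19), had between 1 and 46 reads per library, so that their likeness rests on low counts.

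The promoters of the 3 neighbouring genes are shown because the genes lie side by side and share sequence, while their levels differ. The stretches are from RefSeq on GRCm38.p6, a later build than the mm9 of the files, and all 4 genes were matched there by symbol. Capitals mark the first of the 2 longest words that all 3 promoters hold, which tie at 13 letters (Alpi chr1:87101628-87101720 minus strand, Akp3 chr1:87124812-87124904 plus strand, Alppl2 chr1:87089975-87090067 minus strand).
Alpi: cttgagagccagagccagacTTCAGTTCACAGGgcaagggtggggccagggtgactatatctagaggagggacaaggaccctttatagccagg
Akp3: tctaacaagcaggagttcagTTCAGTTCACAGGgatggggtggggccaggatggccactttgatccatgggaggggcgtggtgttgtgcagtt
Alppl2: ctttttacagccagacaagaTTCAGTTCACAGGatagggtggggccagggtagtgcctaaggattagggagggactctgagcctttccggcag
The word TTCAGTTCACAGG was held, on either strand, by 10 of 32851 mouse promoters of 300 bases (0.0304%), and GGGTGGGGCCAGG, the other word, which follows it in all 3 without overlap, by 16 (0.0487%). TTTAT, a short A and T rich word that Cdx factors are known to bind, was in the windows of Alpi and Alpl and in 13143 of the 32851 promoters. Alppl2 holds both shared words and had at most 10 reads in any library. These matches are descriptions of letters in the windows.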

How the data were processed

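Alpi, Akp3, Alpl and the lists were chosen with earlier results of these data known. The authors matched 35-color SOLiD reads to mm9 exon blocks and a junction reference with up to 3 mismatches, and the deposited match files hold the place and mismatches of each uniquely placed read, from which reads were counted here. Blocks were joined into genes by the GENCODE M1 annotation of NCBIM37, the same build as mm9. RPKM used exon length and all uniquely placed reads. Intervals are exact Poisson for counts, exact conditional binomial for ratios, and exact binomial or Wilson for shares, all at 95%. Near copies were found by comparing each 35-base window with all exon sequence (tested on simulated data, as was the 3-fold rule). Named genes were the members, Alppl2, the 3 nearest genes per member, and pathway list genes called alike in both protocols, at most 4 per list. The zinc transporters were named as a whole list. Exceptions, named after their values were seen, are Dpm3, Pgap2, Cdx2, the 5 genes leading the protocol difference and the proximal and distal genes. Marker lists were fixed by cell type, and their genes are named as list members or as examples picked by value. An added fit used limma 3.58.1 in R 4.3.3 with tissue and protocol as terms (tested on simulated data), adjusted by Benjamini-Hochberg. Alternatives were mismatches, start points, junction reads, scaling, own blocks, unique positions and the penalty. Software was Python 3.11.15, numpy 2.4.6, pandas 2.3.3, scipy 1.17.1, statsmodels 0.14.6 and Biopython 1.88. The labels name rRNA depletion for the strand-specific libraries, and the study's text speaks of polyadenylated RNA. The study also gives longer reads and many more uniquely mapped reads for its strand-specific libraries than these hold. Whether they are the same libraries was not clear.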

Additional observations from a re-analysis of the deposited data

Results flagged for a closer look

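For Alpl, the rRNA-depleted level over the cDNA fragmented level was 2.37 in small intestine (3 against 14 reads, exact conditional 95% interval 0.436 to 8.48) and 0.324 in colon (2 against 44 reads, 0.0381 to 1.24). It is listed because the 2 tissues, with 1 library per protocol each, went in opposite directions. The difference between them was not tested, and both intervals include 1.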

How the results depend on the processing

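No tissue ratio turned direction under the alternatives that gave a value, but the balance of all genes called for either tissue did. Counting start points in place of reads moved the tissue ratio of Alpi to 15.2 (cDNA fragmented) and 12.8 (rRNA-depleted), that of Akp3 to 85.8 (rRNA-depleted), and the Alpi share in the cDNA fragmented small intestine to 99.3%, and a start point counts once however many reads it holds. Scaling by the median of ratios moved the Alpi ratios to 35.8 and 43.2. In the rRNA-depleted small intestine the Alpi share became 64.9% with at most 1 mismatch, 52.1% per unique start position, and 57.7% per unique start position of blocks 2 to 10, an alternative chosen after seeing the data. With a penalty of 0.1, 3.38% of genes passed for small intestine and 6.60% for colon in the cDNA fragmented pair (708 and 1381 genes), and 5.92% and 12.6% in the rRNA-depleted pair (1239 and 2629). With the median of ratios, 2.80% passed for small intestine and 1.69% for colon in the cDNA fragmented pair, and 3.78% and 3.09% in the rRNA-depleted pair, so that small intestine calls outnumbered colon calls, unlike the 2.15% against 2.54% and 2.77% against 4.82% under the scaling by placed reads. The cause of these moves was not tested. With at most 1 mismatch Akp3 had no read in the cDNA fragmented colon, so no ratio was formed. With protocol as the block over the 4 libraries, a fit added after seeing the data, log2 small intestine minus colon was 4.64 for Alpi, 3.96 for Akp3 and -0.04 for Alpl, and with 0.1 RPKM added in place of 1 it was 4.89, 5.14 and -0.08, where Akp3 passed. Calls under that fit numbered 324 for small intestine and 421 for colon, and 589 and 1198 with 0.1 RPKM added. Within a protocol no library could be left out, since each group holds 1. Depth limits Alpl and Alppl2 in the rRNA-depleted libraries and Akp3 in the rRNA-depleted colon, each at 6 reads or fewer. In the cDNA fragmented colon, the library with the most reads, Akp3 had 1 read and its interval reached 0.134 RPKM.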
